A study of Mus musculus with 12 samples.

Results

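The genes described here are 33 genes of cholesterol and fatty acid synthesis and of its control by sterol regulatory element-binding proteins (SREBPs). They form a named list of pathway genes, chosen with earlier results of these data known. Their symbols were matched to the Ensembl identifiers of the deposited count files, and all 33 were found among the 41388 genes listed. By role, 8 belong to the mevalonate steps, 3 lead from squalene to lanosterol, 8 lead from lanosterol to cholesterol, 5 control the SREBPs, 1 carries sterol between membranes and 8 make fatty acids. All 33 passed the filter on low counts in each comparison. RNA was sequenced from brain cells of 8 mice on a C57BL/6 background. Every mouse carried loxP-flanked (fl/fl) Bmal alleles, so the control mice carry them too. Mice labelled KO also carried ALDH1L1-CreERT2, a recombinase that tamoxifen activates and that the promoter of the astrocyte gene Aldh1l1 drives, and mice labelled WT lacked it. At 2 months of age every animal, WT included, received tamoxifen by gavage (2 mg daily over 5 days), and brains were taken at 20 months. Dissociated brain cells were passed over magnetic beads that bind ACSA-2, an astrocyte surface antigen. The bound cells are the captured astrocytes, and the flowthrough is the rest. The 4 groups were KO-labelled astrocytes (mice 60, 62, 73 and 132), WT-labelled astrocytes (mice 56, 57, 64 and 78), KO-labelled flowthrough (mice 60 and 132) and WT-labelled flowthrough (mice 56 and 64), and values are listed below in that order of mice. One library was made per mouse and fraction, so the 4 mice 56, 60, 64 and 132 gave both fractions.

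Cholesterol does not cross the blood-brain barrier in lipoproteins, so the brain makes its own, and in the adult brain astrocytes are regarded as a main producer, with oligodendrocytes making it for myelin. The pathway starts from acetyl-CoA, runs through mevalonate and squalene to lanosterol, and ends in cholesterol after demethylation, reduction and isomerisation of the sterol ring. SREBP2, encoded by Srebf2, activates the genes of these steps, and SREBP1, encoded by Srebf1, acts more on fatty acid synthesis. Both are held in the endoplasmic reticulum by INSIG proteins when sterol is plentiful, and SCAP escorts them to the Golgi for cleavage when it is scarce. BMAL1, encoded by Arntl, is a transcription factor of the circadian clock that binds E-box sequences as a partner of CLOCK.

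The upstream windows of 4 members are shown because these genes mark the range of behaviour described below: Hmgcs1, Sc5d and Insig1 were higher in captured astrocytes, and Ebp was lower. The sequences are the 250 bases before the RefSeq start of each gene in GRCm38.p6, read in the direction of the gene. Capitals mark matches on either strand to 3 motifs: the sterol regulatory element core TCACNCCAC, the E-box CACGTG and the CCAAT box (ATTGG on the reverse strand), which binds NF-Y, a known partner of the SREBPs. The capitalised matches do not overlap one another. The Hmgcs1 window lies at chr13:119690101-119690350 on the plus strand, the Sc5d window at chr9:42264301-42264550 on the minus strand, the Insig1 window at chr5:28071162-28071411 on the plus strand and the Ebp window at chrX:8193513-8193762 on the minus strand.
Hmgcs1: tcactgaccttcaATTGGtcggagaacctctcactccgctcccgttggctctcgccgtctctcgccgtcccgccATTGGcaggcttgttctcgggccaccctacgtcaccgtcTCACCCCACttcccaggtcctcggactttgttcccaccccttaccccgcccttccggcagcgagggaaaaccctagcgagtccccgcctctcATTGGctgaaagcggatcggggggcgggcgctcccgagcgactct
Sc5d: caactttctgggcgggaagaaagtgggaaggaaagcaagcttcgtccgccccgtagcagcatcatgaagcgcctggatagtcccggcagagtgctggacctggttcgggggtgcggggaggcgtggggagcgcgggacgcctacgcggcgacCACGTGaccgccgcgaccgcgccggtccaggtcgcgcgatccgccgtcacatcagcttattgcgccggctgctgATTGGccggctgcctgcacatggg
Insig1: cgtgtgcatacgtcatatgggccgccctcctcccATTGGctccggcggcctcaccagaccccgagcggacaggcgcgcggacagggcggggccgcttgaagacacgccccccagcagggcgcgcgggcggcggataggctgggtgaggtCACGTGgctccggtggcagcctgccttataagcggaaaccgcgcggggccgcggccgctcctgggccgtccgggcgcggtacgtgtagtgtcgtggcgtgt
Ebp: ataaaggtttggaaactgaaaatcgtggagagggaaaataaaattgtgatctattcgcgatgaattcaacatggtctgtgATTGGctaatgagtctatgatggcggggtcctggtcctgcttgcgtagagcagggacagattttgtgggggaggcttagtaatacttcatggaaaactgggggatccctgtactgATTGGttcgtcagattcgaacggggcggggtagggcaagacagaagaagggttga

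The table of RefSeq windows used here matched 26 of the 33 members by symbol, with 34 windows, since Dhcr7, Insig2 and Srebf1 have 3 start sites each and Pmvk and Scap have 2. Fdps, Fdft1, Sqle, Stard4, Scd1, Scd2 and Fads1 had no window, so the shares below do not cover them. A gene was counted where any of its windows held a match, for members and for all genes alike. The sterol element core was found in 1 of them (3.85%), Hmgcs1, 137 to 129 bases before the start, beside 1.22% of the 27025 genes with a window. The E-box was found in 5 members (19.2%), Hsd17b7, Sc5d, Dhcr7 (in 1 of 3 windows), Insig1 and Scap (in 1 of 2 windows), beside 6.86% of all genes and 8.87% of the 13974 tested genes with a window. The CCAAT box was found in 20 members (76.9%), beside 37.5% of all genes and 39.3% of tested genes. Ebp holds 2 CCAAT boxes and neither of the other motifs. This is not particular to Ebp. Mvk, Mvd, Idi1, Lss, Cyp51, Tm7sf2, Msmo1 and Fasn, all higher in captured astrocytes, likewise hold CCAAT boxes and neither of the other motifs. These are matches of letters within windows of fixed length and were not tested.

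The libraries held 38691406 to 51551942 counts each. Arntl, the gene the label refers to, had 401, 428, 645 and 628 counts in KO-labelled astrocytes, 360, 239, 242 and 374 in WT-labelled astrocytes, 261 and 284 in KO-labelled flowthrough and 292 and 217 in WT-labelled flowthrough. In astrocytes the lowest KO-labelled count (401) exceeded the highest WT-labelled count (374). The counts of the whole gene, not scaled to library size, were thus higher under the KO label there, not lower. They do not separate a transcript without the deleted exons from a full one, and the labels do not say which exons the loxP sites flank, so every KO minus WT direction below rests on the labels alone. All 10 astrocyte markers were detected in every library, Aldh1l1 at 191, 315, 79.3 and 169 CPM in KO-labelled astrocytes and 227, 223, 185 and 249 CPM in WT-labelled astrocytes. The KO-labelled astrocyte library of mouse 73 stood apart: its astrocyte markers summed to 10229 CPM, beside 15798 to 21980 CPM in the other 7 astrocyte libraries, and its microglia markers to 2943 CPM, beside 603 to 1229 CPM. Xist, the RNA of the inactive X chromosome, had 2411 counts in mouse 73 and 1133 in mouse 78 and at most 8 in the other astrocyte libraries, so each label held 1 such mouse.

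Levels are first compared between genes per kilobase of summed exon length (CPM per kb, CPM being read counts scaled to the library size with TMM factors). In WT-labelled astrocytes the desaturase gene Scd2 had the highest level of the 33 members, 292 ± 30.3 CPM per kb (SD, n = 4). Next came Fads2, a fatty acid desaturase of polyunsaturated chains, at 133 ± 27.6, and Hmgcs1, the synthase that makes HMG-CoA, at 124 ± 16.2 CPM per kb. Scd2 lay clear of both, which did not differ from each other beyond 1 SD. Below them followed Fads1 (95.8 ± 14.7), Pmvk (88.3 ± 21.7), Scd1 (87.5 ± 16.1), Sc5d (74.8 ± 2.39) and Fdps (66.9 ± 7.21 CPM per kb), neighbours whose ranges of 1 SD overlap in part. At the low end were Acaca at 1.44 ± 0.240, Scap at 2.40 ± 0.166, Lss at 2.81 ± 0.399 and Stard4 at 2.84 ± 0.449 CPM per kb. Acaca and Lss have summed exon lengths of 15155 and 10787 bases, so their per-length levels depend on how many annotated exons are used. The sterol enzymes did not share one level: in the mevalonate steps Hmgcs1 exceeded Idi1, at 13.2 ± 3.01 CPM per kb, although both act on the same chain. Scd2 was first and Acaca last of the 33 in all 4 groups. In WT-labelled flowthrough Scd2 stood at 89.7 ± 26.0 CPM per kb (SD, n = 2), followed by Fdps at 57.5 ± 7.38, Hmgcs1 at 47.9 ± 8.52 and Pmvk at 46.9 ± 10.9. Ebp moved most in rank, from place 24 of 33 in WT-labelled astrocytes to place 10 in WT-labelled flowthrough.

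**Figure D1:**
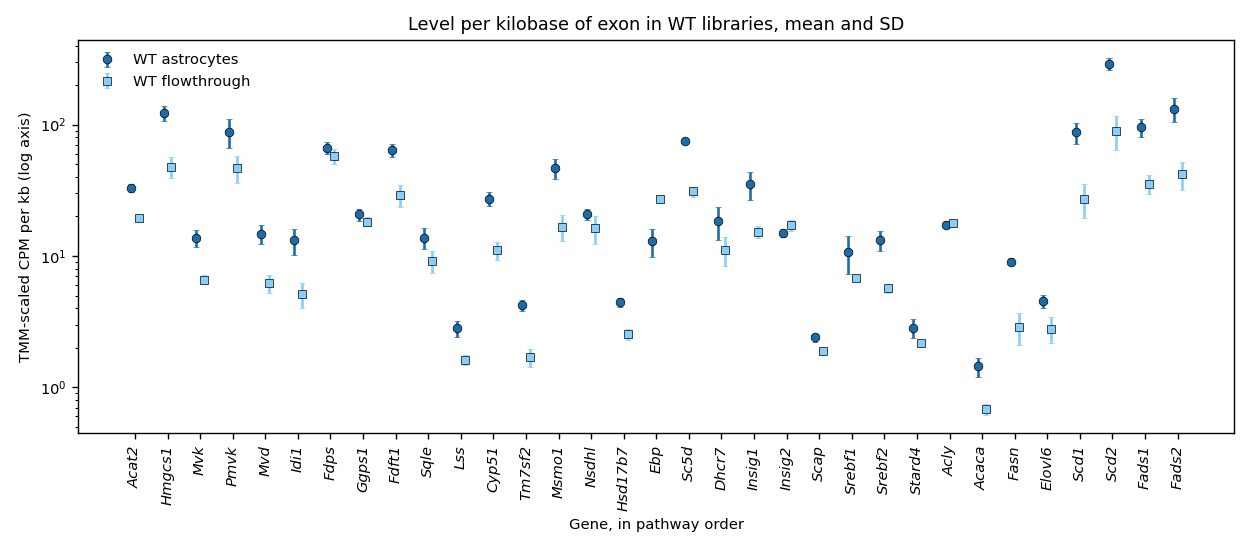
Level of each of the 33 genes in TMM-scaled CPM per kilobase of summed exon length (log axis), in pathway order. Circles are the mean and SD of 4 WT-labelled astrocyte libraries and squares those of 2 WT-labelled flowthrough libraries. Scd2 lies highest in both fractions, and Ebp is a gene whose square clearly lies above its circle.

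Captured astrocytes held more RNA of most of these genes than the flowthrough. Of the 33 members, 27 were higher and 1 was lower in astrocytes at an adjusted p under 0.05 (edgeR quasi-likelihood test, Benjamini-Hochberg over 20997 genes), while 24.8% of all tested genes were called higher and 24.4% lower. The median log2 fold change of the members was 0.86, and that of all tested genes was 0.00. In 23 members the 8 astrocyte libraries and the 4 flowthrough libraries did not overlap, 22 with astrocytes higher, and 29.2% of all tested genes did not overlap. Scaling by library size alone moved the median of all genes to -0.14 and that of the members to 0.70. It called 23 members higher and 1 lower, beside 20.2% of all genes higher. In such bulk fractions, fewer cells of a type and less RNA per cell cannot be told apart.

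**Figure D2:**
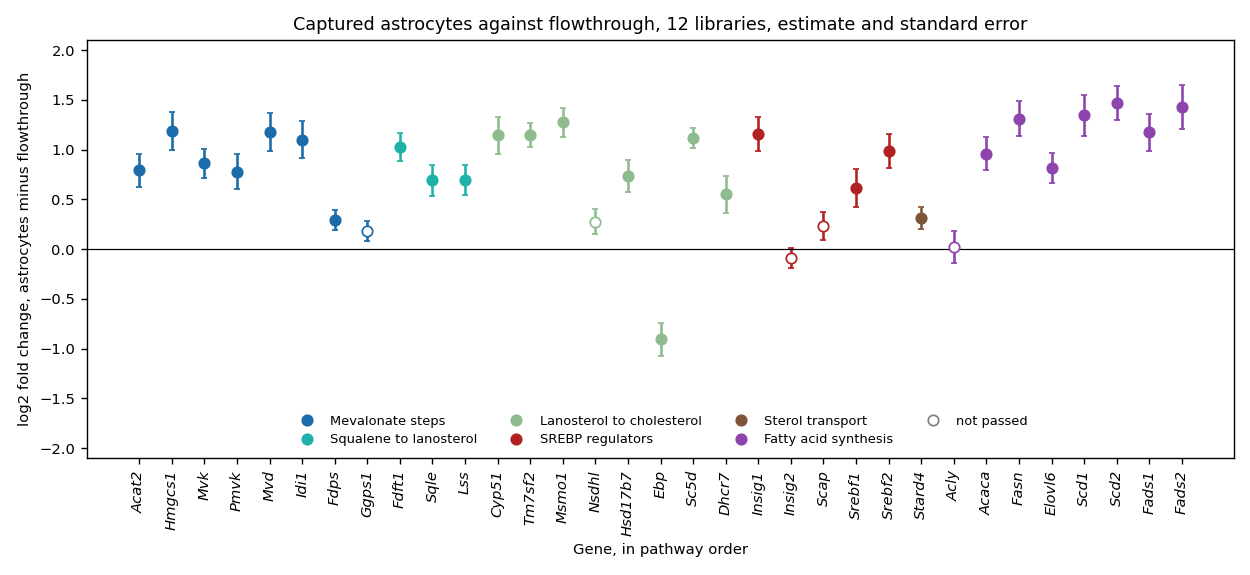
Log2 fold change of each gene between captured astrocytes and flowthrough over 12 libraries, in pathway order, with its standard error. Filled points passed an adjusted p of 0.05 and open points did not; Ebp is the filled point below 0, and the fatty acid genes other than Acly lie between 0.82 and 1.47.

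Markers of several cell types moved with the fraction. All 10 astrocyte markers were higher in astrocytes (median log2 fold change 1.86), and so were all 10 neuron markers (1.65) and 5 of 10 oligodendrocyte markers, all 10 of which had estimates above 0 (0.99). All 10 microglia markers (-3.67), all 10 endothelial markers (-1.14) and all 5 choroid plexus markers (-2.58) were lower in astrocytes. Of 6 oligodendrocyte precursor markers 3 were higher and 1 was lower (median 0.33). Of 5 ependymal markers 0 were called, with all 5 estimates below 0 (-0.64). Oligodendrocyte markers, which belong to a cell type that itself makes cholesterol, summed to 20395 to 38522 CPM in the astrocyte libraries and 12434 to 29862 CPM in the flowthrough. Neuron markers summed to 1362 to 3078 CPM in astrocytes and 453 to 1261 CPM in flowthrough, and microglia markers to 603 to 2943 CPM and 11438 to 17944 CPM. No marker of these types was at 0 in any library. Mitochondrial genes took 12.6% to 21.4% of counts in astrocytes and 4.66% to 12.7% in flowthrough. The part of these shifts in the results on the members was not tested.

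**Figure D3:**
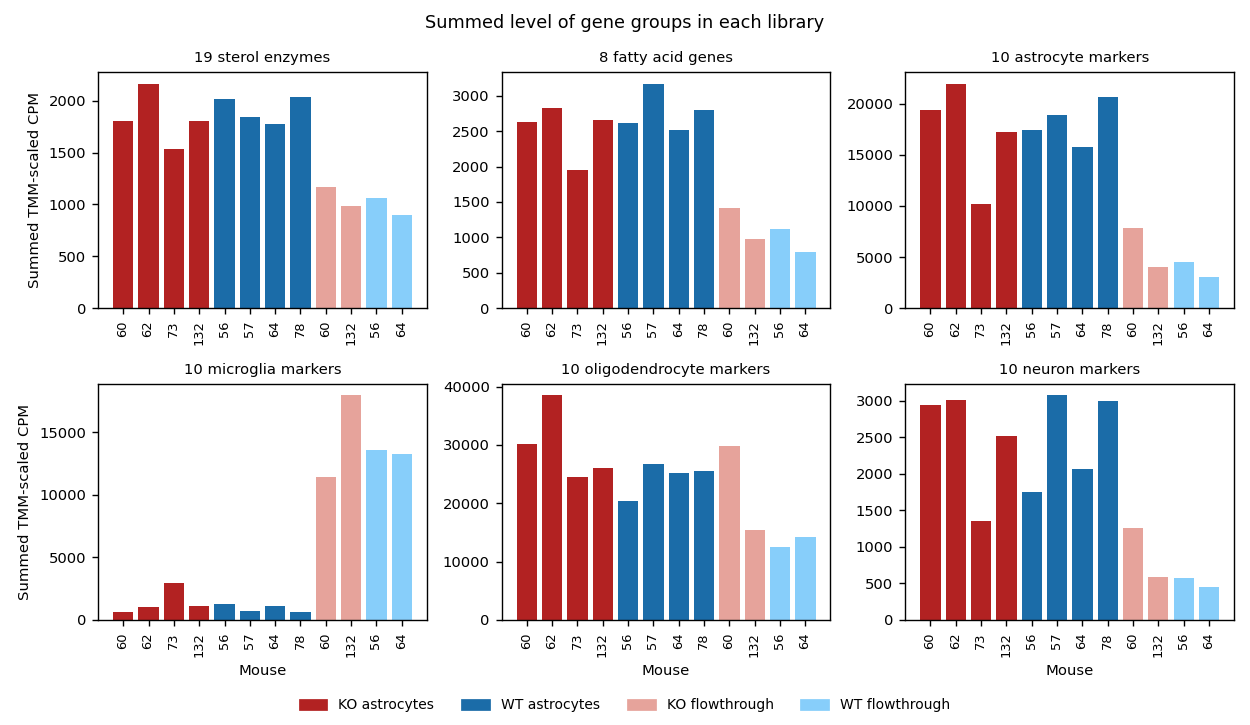
Summed TMM-scaled CPM in each of the 12 libraries for the 19 sterol enzymes, the 8 fatty acid genes and 10 markers each of astrocytes, microglia, oligodendrocytes and neurons; bars are single libraries named by mouse. The sterol enzymes sum to 1539 to 2166 CPM in astrocytes and 898 to 1167 CPM in flowthrough, and the mouse 73 library has the lowest sterol, fatty acid and astrocyte marker sums of the 8 astrocyte libraries.

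The mevalonate steps turn acetyl-CoA into the isoprenoid building blocks of sterols, and 7 of their 8 genes were higher in captured astrocytes. Hmgcs1, on chromosome 13 (119690462 to 119708086, GRCm38), was at 486, 571, 297 and 437 CPM in KO-labelled astrocytes, 363, 436, 347 and 453 in WT-labelled astrocytes, 269.5 and 176 in KO-labelled flowthrough and 174 and 135 in WT-labelled flowthrough. Every astrocyte library lay above every flowthrough library, although mouse 73 (297 CPM) came close to the flowthrough of mouse 60 (269.5 CPM). Its level was 2.28-fold higher in astrocytes (log2 1.19 ± 0.19 SE, adjusted p = 0.000481, edgeR). Mvd, the mevalonate diphosphate decarboxylase, was at 22.3, 33.4, 15.9 and 21.7 CPM (KO) and 30.5, 22.9, 28.6 and 21.9 CPM (WT) in astrocytes and at 11.9 and 9.84 CPM (KO) and 9.74 and 12.1 CPM (WT) in the flowthrough, again without overlap. Idi1, which isomerises the resulting isopentenyl diphosphate, gave 47.0, 48.9, 35.3 and 42.1 CPM (KO) and 39.9, 49.5, 35.8 and 59.4 CPM (WT) in astrocytes and 29.1 and 19.2 CPM (KO) and 20.8 and 15.2 CPM (WT) in flowthrough. Both changed by close to the amount of Hmgcs1, Mvd by 1.18 ± 0.19 (adjusted p = 0.000561) and Idi1 by 1.10 ± 0.18 (adjusted p = 0.000544) on the log2 scale.

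The thiolase and both kinases of this stretch, Acat2, Mvk and Pmvk, were higher by 0.78 to 0.86 on the log2 scale. The branch-point enzymes changed less. Fdps, which makes farnesyl diphosphate for sterols and for protein prenylation, was at 76.3, 74.4, 75.8 and 84.0 CPM (KO) and 91.2, 76.0, 90.3 and 74.5 CPM (WT) in astrocytes against 62.8 and 58.1 CPM (KO) and 64.9 and 77.9 CPM (WT) in flowthrough, with overlap between the fractions. Its log2 fold change of 0.29 ± 0.10 passed (adjusted p = 0.0309, edgeR), but it passed in only 13 of 21 alternative settings. Ggps1, which leads to geranylgeranyl diphosphate and so away from sterols, did not pass, at 0.18 ± 0.10 (95% interval -0.03 to 0.39, adjusted p = 0.136).

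From squalene to lanosterol all 3 genes were higher in captured astrocytes. Fdft1, squalene synthase, was at 130.0, 173, 112 and 136 CPM in KO-labelled and 199.6, 163, 169 and 199.9 CPM in WT-labelled astrocytes and at 78.5 and 67.7 CPM (KO) and 95.2 and 72.1 CPM (WT) in the flowthrough groups. The lowest astrocyte library, mouse 73, lay above the highest flowthrough library, mouse 56. The difference was 1.02 ± 0.14 on the log2 scale (adjusted p = 0.000183, edgeR). Fdft1 lies on chromosome 14 (63145153 to 63177793), and 26.8% of its exonic bases overlap exons of Ctsb on the opposite strand, whose median count was 60444.5 beside 5778 for Fdft1. Whether reads were counted by strand is not known here, which makes the Fdft1 values uncertain. Sqle, squalene epoxidase, was at 56.9, 88.1, 77.3 and 62.5 CPM (KO) and 92.5, 66.0, 84.4 and 63.4 CPM (WT) in astrocytes and 44.2 and 37.9 CPM (KO) and 58.0 and 44.1 CPM (WT) in flowthrough, where only mouse 60 astrocytes (56.9 CPM) fell below the flowthrough of mouse 56 (58.0 CPM). Lss, lanosterol synthase, was at 29.4, 44.2, 27.3 and 33.4 CPM (KO) and 33.7, 33.7, 29.1 and 24.7 CPM (WT) in astrocytes and 24.1 and 20.4 CPM (KO) and 18.6 and 16.5 CPM (WT) in flowthrough, without overlap. Sqle and Lss were higher by 0.69 ± 0.16 and 0.69 ± 0.15 on the log2 scale (adjusted p = 0.00399 and 0.00285).

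In the last stretch, from lanosterol to cholesterol, 6 of 8 genes were higher in captured astrocytes and 1 was lower. Cyp51, the lanosterol demethylase, was at 133, 127, 88.2 and 114 CPM (KO) and 114, 122, 98.6 and 134 CPM (WT) in astrocytes and 76.6 and 40.7 CPM (KO) and 52.8 and 42.0 CPM (WT) in flowthrough. Msmo1, the C4 methyl oxidase, was at 187, 238, 241 and 214 CPM (KO) and 328, 217, 281 and 316 CPM (WT) in astrocytes and 111 and 99.6 CPM (KO) and 118 and 86.4 CPM (WT) in flowthrough. Neither gene had a flowthrough library within the astrocyte range. Their levels were 2.21-fold and 2.42-fold higher (log2 1.14 ± 0.18 and 1.27 ± 0.15, adjusted p = 0.000478 and 6.27e-05, edgeR). Tm7sf2, a sterol C14 reductase, was low, at 12.6, 14.0, 13.8 and 11.6 CPM (KO) and 16.5, 13.5, 14.6 and 14.1 CPM (WT) in astrocytes and 6.63 and 6.54 CPM (KO) and 6.55 and 5.26 CPM (WT) in flowthrough, and its fractions were also apart (log2 1.15 ± 0.12, adjusted p = 3.74e-05). It shares 15.3% of its exonic bases with Vps51 on the same strand. Lbr, which also encodes a sterol C14 reductase and is among the other lipid genes counted below, went the other way. Its log2 ratio of astrocytes to flowthrough was -1.55, -1.81, -2.03 and -2.04 in mice 56, 60, 64 and 132.

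Sc5d, the C5 desaturase, had the smallest adjusted p of the 33 members in this comparison. Its levels were 173, 192, 154 and 182 CPM in KO-labelled astrocytes, 178, 176, 166 and 177 CPM in WT-labelled astrocytes and 98.7 and 82.3 CPM (KO) and 76.8 and 67.8 CPM (WT) in the flowthrough groups. Astrocyte libraries were close to one another and well above the highest flowthrough library (98.7 CPM). The log2 fold change was 1.11 ± 0.10 (adjusted p = 1.83e-05, edgeR). Hsd17b7 and Dhcr7, which encode sterol reductases, were higher by 0.74 and 0.55. Nsdhl, the C4 decarboxylase, did not pass, at 0.28 ± 0.12 (adjusted p = 0.0849), although it passed in 3 of 21 alternatives, among them both paired fits with the mouse as a block (smallest adjusted p = 0.0183).

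Ebp, the sterol isomerase that acts just before Sc5d, went the other way. It was at 25.5, 38.0, 38.6 and 32.6 CPM in KO-labelled astrocytes, 37.6, 25.1, 35.0 and 22.7 CPM in WT-labelled astrocytes, 47.9 and 65.2 CPM in KO-labelled flowthrough and 60.8 and 65.0 CPM in WT-labelled flowthrough. All 4 flowthrough libraries exceeded all 8 astrocyte libraries, the closest being the flowthrough of mouse 60 (47.9 CPM) and the astrocytes of mouse 73 (38.6 CPM). Astrocytes held 0.534 of the flowthrough level (log2 -0.91 ± 0.16, adjusted p = 0.000973, edgeR). The log2 ratio of astrocytes to flowthrough within a mouse was -0.69, -0.91 and -0.89 in mice 56, 60 and 64 and -0.9998 in mouse 132. Ebp lies on the X chromosome (8185329 to 8193512), as does Nsdhl. In all 21 alternatives Ebp kept its direction and passed, with log2 values from -1.04 to -0.79.

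Among the 5 regulators, 3 were higher in captured astrocytes. Insig1, whose own transcription the SREBPs drive, was at 59.1, 83.8, 91.7 and 85.7 CPM (KO) and 93.7, 74.6, 128 and 84.0 CPM (WT) in astrocytes and 40.5 and 34.1 CPM (KO) and 44.1 and 38.0 CPM (WT) in flowthrough. Srebf2 was at 65.0, 65.2, 46.5 and 50.5 CPM (KO) and 65.7, 69.5, 49.9 and 77.3 CPM (WT) in astrocytes and 41.6 and 25.9 CPM (KO) and 29.7 and 26.9 CPM (WT) in flowthrough. In both genes the fractions were apart, and the differences were 1.16 ± 0.17 (adjusted p = 0.000275) and 0.98 ± 0.17 (adjusted p = 0.000719) on the log2 scale. Srebf1 was at 41.6, 32.4, 53.0 and 48.2 CPM (KO) and 89.6, 56.0, 53.1 and 44.1 CPM (WT) in astrocytes and 30.7 and 27.9 CPM (KO) and 40.0 and 37.2 CPM (WT) in flowthrough. It was highest in the WT-labelled astrocytes of mouse 56, and mouse 62 astrocytes lay within the flowthrough range. Its difference of 0.62 ± 0.19 passed (adjusted p = 0.0194, edgeR), but not in 4 of 21 alternatives. Insig2, the second sterol-sensing anchor, and Scap, the escort, did not pass, at -0.09 ± 0.10 (95% interval -0.32 to 0.13) and 0.23 ± 0.14 (-0.08 to 0.53). Stard4, which carries sterol between membranes, was at 15.7, 16.3, 14.6 and 16.0 CPM (KO) and 13.6, 19.3, 14.4 and 16.0 CPM (WT) in astrocytes and 13.2 and 13.1 CPM (KO) and 12.1 and 12.3 CPM (WT) in flowthrough. The fractions were narrowly apart (log2 0.31 ± 0.11, adjusted p = 0.0396), and the call was kept in 9 of 21 alternatives.

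Fatty acid genes had the highest median of the larger role groups, 1.24 on the log2 scale, and 7 of 8 were higher in captured astrocytes. Scd2, on chromosome 19 (44293676 to 44306864), was at 1555, 1669, 1249 and 1547 CPM in KO-labelled astrocytes, 1467, 1799.5, 1449.8 and 1646 CPM in WT-labelled astrocytes, 786 and 492 CPM in KO-labelled flowthrough and 589 and 389 CPM in WT-labelled flowthrough. Scd1, its neighbour (44394451 to 44407709), was at 335, 399, 224 and 410.1 CPM (KO) and 379, 539.5, 392 and 381 CPM (WT) in astrocytes and 197 and 142 CPM (KO) and 159 and 105 CPM (WT) in flowthrough. Both desaturases, which put the first double bond into saturated chains, were apart between the fractions, by 1.47 ± 0.17 (adjusted p = 7.13e-05) and 1.34 ± 0.20 (adjusted p = 0.000327). The Scd genes are close paralogs, so the split of reads between them is uncertain. Fads2 was at 185, 167, 96.2 and 165 CPM (KO) and 250.0, 211, 151 and 188 CPM (WT) in astrocytes and 83.5 and 50.5 CPM (KO) and 73.6 and 52.5 CPM (WT) in flowthrough. Mouse 73 (96.2 CPM) was the lowest astrocyte library and still above the flowthrough of mouse 60 (83.5 CPM). Its log2 fold change was 1.43 ± 0.22 (adjusted p = 0.000383, edgeR), and that of Fads1 was 1.17 ± 0.18.

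Fasn, the fatty acid synthase, was at 82.7, 76.2, 55.9 and 67.1 CPM (KO) and 90.0, 92.0, 81.0 and 93.0 CPM (WT) in astrocytes and 45.5 and 26.3 CPM (KO) and 33.8 and 23.0 CPM (WT) in flowthrough. Acaca, which makes the malonyl-CoA that Fasn uses, was at 27.4, 25.6, 18.4 and 27.4 CPM (KO) and 20.9, 27.1, 18.7 and 20.8 CPM (WT) in astrocytes and 16.6 and 11.0 CPM (KO) and 11.1 and 9.60 CPM (WT) in flowthrough. Neither gene overlapped between the fractions, and they were higher by 1.31 ± 0.18 and 0.96 ± 0.17 (adjusted p = 0.000153 and 0.000745, edgeR). Elovl6, the elongase of palmitate, was higher by 0.82. Acly, which makes cytosolic acetyl-CoA from citrate, did not follow. It was at 106, 173, 89.8 and 117 CPM (KO) and 99.3, 89.8, 88.0 and 88.2 CPM (WT) in astrocytes and 100.5 and 127 CPM (KO) and 92.6 and 96.5 CPM (WT) in flowthrough, so that every flowthrough value lay inside the astrocyte range. Its difference was 0.02 ± 0.16 (95% interval -0.33 to 0.37, adjusted p = 0.925).

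**Figure D4:**
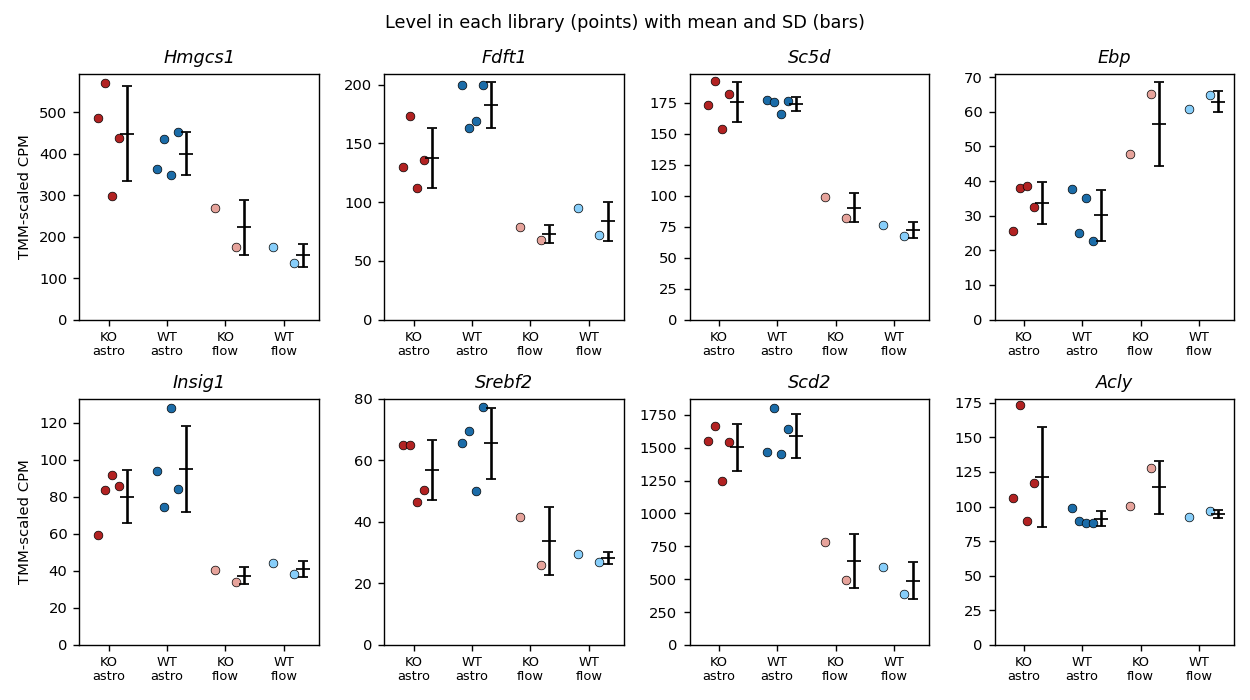
TMM-scaled CPM of 8 genes in each library (points) with the mean and SD (bars) of the 4 groups; astro is captured astrocytes and flow is flowthrough. Hmgcs1, Fdft1, Sc5d, Insig1, Srebf2 and Scd2 lie higher in both astrocyte groups, Ebp lies lower, and Acly overlaps between the fractions.

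The same direction was seen within animals. In each of the 4 mice with both fractions, 30 to 32 members were higher in the astrocytes, and 30 of 33 were higher in 4 of 4 mice, beside 31.0% of all tested genes. The median log2 ratio of the members was 0.98 in mouse 56, 0.65 in mouse 60, 0.89 in mouse 64 and 0.86 in mouse 132. Mouse 60 had the lowest ratio, and its astrocyte, oligodendrocyte and neuron marker lists differed least between the fractions too. Astrocyte markers differed by a median of 1.33 (1.89 to 2.37 in the other 3 mice), oligodendrocyte markers by 0.25 (0.70 to 1.22) and neuron markers by 1.09 (1.43 to 2.09). Other lists were not all alike. The microglia marker Cx3cr1 was at -4.56 in mouse 60 and -3.70, -3.91 and -4.31 in mice 56, 64 and 132. The choroid plexus marker Ttr was at -2.18 in mouse 60 and -2.62, -2.77 and -2.28 in those mice. Scd2 had log2 ratios of 1.32, 0.98, 1.90 and 1.65 in mice 56, 60, 64 and 132, and Msmo1 of 1.47, 0.76, 1.70 and 1.11. Only Ebp was lower in all 4 mice, while Insig2 was higher in 1 mouse and Acly in 2.

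By label, the fraction difference was seen under both. Within WT-labelled libraries 23 members were higher and 1, Ebp, was lower in astrocytes, beside 19.4% and 18.5% of all genes, with a member median of 1.05. Within KO-labelled libraries 20 were higher and 1, Ebp, was lower, beside 9.00% and 14.3% of all genes, with a member median of 0.82. Scd2 differed by 1.70 ± 0.25 within WT (adjusted p = 0.000670) and by 1.24 ± 0.24 within KO (adjusted p = 0.00538), and Msmo1 by 1.48 ± 0.21 and 1.07 ± 0.21. Hmgcs1 differed by 1.37 ± 0.27 and 1.01 ± 0.27, and Ebp by -1.06 ± 0.23 and -0.75 ± 0.23. Ebp passed within KO in 14 of 21 alternatives. These fits do not use the pairing of fractions by mouse. With the mouse as a fixed block, 22 members were higher and 1 lower within KO (17.0% of all genes higher) and 26 and 1 within WT (17.5%). With the mouse as a random effect the counts were 25 and 1 within KO (18.7%) and 26 and 1 within WT (22.2%). The unpaired counts depend on single libraries, as do those of all genes. Without the flowthrough of mouse 132, 1 member was higher within KO, beside 0.414% of all genes. Without the astrocytes of mouse 132 or of mouse 62, 13 members were higher within KO, beside 5.23% and 5.82% of all genes. Without the flowthrough of mouse 64, 13 members were higher and 1 lower within WT, beside 6.09% of all genes higher.

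Whether the label changed the fraction difference was tested as an interaction. None of the 33 members passed, and neither did any gene tested (0%, edgeR), although DESeq2 called 8 genes, no member among them. At an unadjusted p under 0.05 there were 0 members and 3.94% of all genes. The estimates were below 0 in 26 of 33 members (median -0.22, and -0.03 over all genes). A negative estimate is a lower ratio of astrocytes to flowthrough under the KO label. That is a smaller fraction difference for genes higher in astrocytes and a larger difference for genes lower in them. Leaving out single libraries moved the member median from -0.41 (without the flowthrough of mouse 56) to -0.07 (without that of mouse 60). Library size scaling gave -0.12, beside 0.07 over all genes. The 5 with the smallest p were Fasn at -0.68 ± 0.33, Scd1 at -0.67 ± 0.38, Sc5d at -0.31 ± 0.19, Fads1 at -0.52 ± 0.35 and Msmo1 at -0.41 ± 0.28 (adjusted p = 0.934 for each). In the same test astrocyte marker estimates were below 0 in 9 of 10 genes (median -0.58), neuron markers in 10 of 10 (-0.92) and endothelial markers in 10 of 10 (-0.34). Estimates were above 0 for 10 of 10 microglia markers (0.55), 8 of 10 oligodendrocyte markers (0.51), 5 of 5 choroid plexus markers (0.999) and 5 of 5 ependymal markers (1.09). None of these markers was called, and their part in the member estimates was not tested. The intervals were wide: they lay within a 2-fold difference for 20 of 33 members and reached from -1.50 to 1.05.

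The comparison the labels set up is KO against WT astrocytes, and here no member changed past the threshold. In the 8 astrocyte libraries 0 of 33 members were called, beside 0.232% of the 18527 genes tested (edgeR), and DESeq2 and limma-voom also called 0 members. For 3 members, Fdft1, Fasn and Msmo1, there was an unadjusted p under 0.05, beside 5.37% of all genes, and in 0 members were the groups apart, beside 4.03%. Estimates were above 0 in 10 members and below 0 in 23, with a median of -0.09 beside 0.00 over all genes. Leaving out single libraries gave medians from -0.19 (without mouse 62) to -0.02 (without mouse 73). The 95% intervals of all 33 members lay within a 2-fold difference in either direction, from -0.99 at the lower end for Srebf1 to 0.83 at the upper end for Acly, and 30 of the 33 intervals held 0.

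The 5 members with the smallest p are given as values that did not pass. Fdft1, listed above by library, averaged 138 ± 25.7 CPM under the KO label and 183 ± 19.6 CPM under the WT label (SD, 4 mice each), and only mouse 62 (173 CPM) reached into the WT range. Its log2 fold change was -0.40 ± 0.15 (95% interval -0.74 to -0.07, adjusted p = 0.770, edgeR). Fasn averaged 70.5 ± 11.6 and 89.0 ± 5.50 CPM, with mouse 60 (82.7 CPM) above the lowest WT library, mouse 64 (81.0 CPM). Its estimate was -0.33 ± 0.13 (adjusted p = 0.857). Msmo1 averaged 220.3 ± 25.1 and 286 ± 49.9 CPM, an estimate of -0.37 ± 0.16 (adjusted p = 0.888), with mouse 57 (217 CPM) inside the KO-labelled range. Acly averaged 121 ± 36.4 and 91.3 ± 5.33 CPM, an estimate of 0.42 ± 0.19 (adjusted p = 0.930). Its highest value under the KO label was that of mouse 62, 173 CPM, while mouse 73 (89.8 CPM) was level with the WT libraries. Srebf1 averaged 43.8 ± 8.93 and 60.7 ± 19.9 CPM, an estimate of -0.46 ± 0.23 (adjusted p = 0.971), with mouse 56 alone at 89.6 CPM.

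Along the pathway the estimates showed no common step. Medians were -0.06 in the mevalonate genes, -0.10 from squalene to lanosterol, -0.11 from lanosterol to cholesterol, -0.20 in the regulators and -0.18 in the fatty acid genes. Hmgcs1 was at 0.17 ± 0.20 (95% interval -0.27 to 0.61) and Sc5d at 0.02 ± 0.11 (-0.22 to 0.26), the latter being the narrowest interval of the 33 members. Insig1 was at -0.24 ± 0.19 (-0.68 to 0.20) and Srebf2 at -0.20 ± 0.17 (-0.57 to 0.17). Of the 5 members with an E-box in a window, Sc5d and Insig1 are given here, and Hsd17b7 was at -0.09 ± 0.19, Dhcr7 at -0.19 ± 0.20 and Scap at -0.18 ± 0.18, all with intervals that held 0. The mouse 73 library held the lowest of the 8 levels for 17 of 33 members, beside 25.7% of all genes. Microglia and oligodendrocyte markers had estimates above 0 in 10 of 10 genes each (medians 0.55 and 0.78) and astrocyte markers below 0 in 8 of 10 (median -0.23). Choroid plexus and ependymal markers were above 0 in 5 of 5 each (0.33 and 0.16) and endothelial markers in 8 of 10 (0.21). Oligodendrocyte precursor markers were above 0 in 5 of 6 (0.26) and neuron markers below 0 in 6 of 10 (-0.07). No marker was called, and the part of these markers in the member estimates was not tested.

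**Figure D5:**
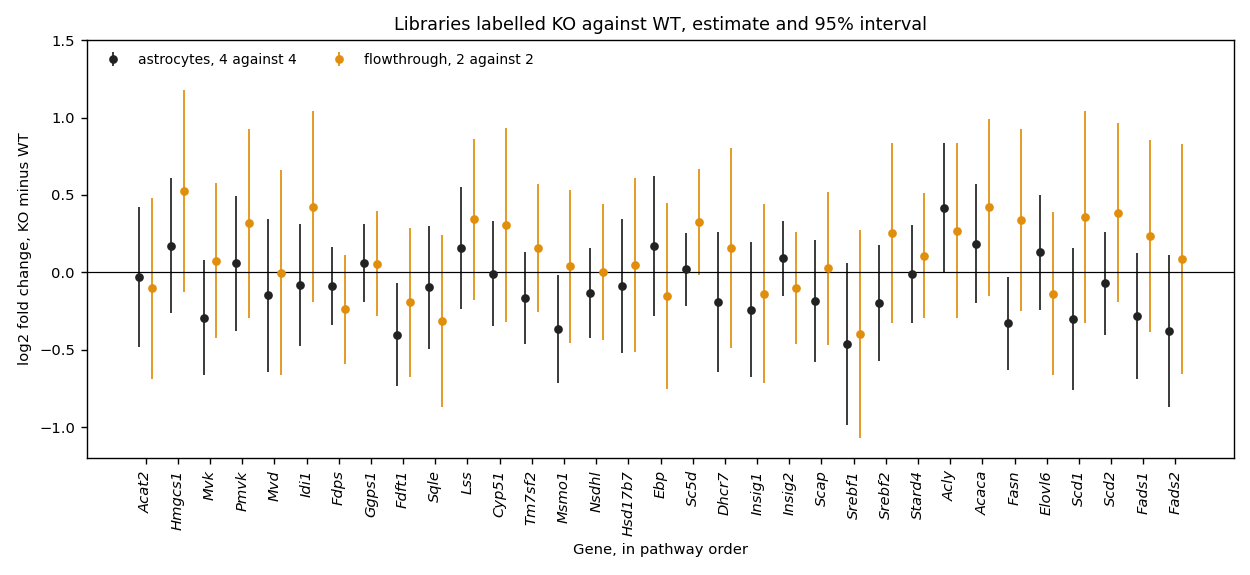
Log2 fold change of KO against WT with its 95% interval for each gene, in pathway order: black for the 4 against 4 astrocyte libraries and orange for the 2 against 2 flowthrough libraries. All black intervals lie between -0.99 and 0.83, and the orange intervals all hold 0.

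In the flowthrough, with 2 mice per label, 0 of 33 members were called, beside 0.00476% of all genes (1 gene, edgeR), and 0 had an unadjusted p under 0.05, beside 4.63%. DESeq2 and limma-voom called 0 members. Estimates were above 0 in 23 members and below 0 in 10, with a median of 0.09 beside 0.04 over all genes. In 9 members the groups did not overlap, 6 higher and 3 lower under the KO label, beside 33.6% of all genes. The 5 with the smallest p, given above by library, were Sc5d at 0.32 ± 0.16, Hmgcs1 at 0.52 ± 0.30, Acaca at 0.42 ± 0.26, Idi1 at 0.42 ± 0.28 and Fdps at -0.24 ± 0.16 (adjusted p = 1 for each). Intervals lay within a 2-fold difference for 29 of 33 members. The flowthrough of mouse 60 held the highest of the 4 levels for 18 of 33 members, beside 31.6% of all genes. Its astrocyte markers summed to 7841 CPM, beside 3080 to 4518 CPM in the other 3. Estimates were above 0 for 10 of 10 neuron markers (median 0.92, 4 apart), 10 of 10 endothelial markers (0.58, 6 apart), 9 of 10 astrocyte markers (0.28) and 9 of 10 oligodendrocyte markers (0.26, 1 apart). They were below 0 for 5 of 5 choroid plexus markers (-0.80) and 5 of 5 ependymal markers (-0.95), and all 10 of these were apart. Choroid plexus markers summed to 19298 and 23269 CPM (KO) and 33880 and 40049 CPM (WT). No marker was called, and the part of these markers in the member estimates was not tested. Without the flowthrough of mouse 60 the member median was -0.01, and without the flowthrough of mouse 56 it was 0.27.

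Another 69 genes of lipid metabolism were followed beside the members, of which 68 were tested. Between the fractions 18 were higher and 24 lower in captured astrocytes, with a median of -0.02, which is 26.5% and 35.3% of the 68 beside 24.8% and 24.4% of all genes. The 13 genes of sterol removal and storage had 2 higher and 6 lower, the 9 of SREBP processing 0 higher and 5 lower, and the 14 of elongation and desaturation 7 higher and 3 lower. The 4 with the smallest p were Acsl3, which activates long-chain fatty acids, Mlxipl, which encodes the carbohydrate-responsive factor ChREBP, Mylip, whose protein degrades lipoprotein receptors, and Elovl2, an elongase of polyunsaturated chains. Acsl3 was at 89.8, 74.3, 80.4 and 80.5 CPM (KO) and 83.7, 83.8, 83.9 and 86.2 CPM (WT) in astrocytes and 35.4 and 15.4 CPM (KO) and 16.0 and 12.1 CPM (WT) in flowthrough, a difference of 2.13 ± 0.20 (adjusted p = 2.10e-05, edgeR). Mylip was at 8.60, 4.41, 11.5 and 9.66 CPM (KO) and 8.40, 9.44, 5.59 and 7.60 CPM (WT) in astrocytes and 35.0 and 39.2 CPM (KO) and 37.9 and 26.2 CPM (WT) in flowthrough, a difference of -2.08 ± 0.22 (adjusted p = 3.99e-05). Neither gene overlapped between the fractions. Mlxipl differed by -3.58 ± 0.37 and Elovl2 by 2.25 ± 0.24.

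Of the same 68 genes, 0 were called between KO and WT astrocytes and 8 had an unadjusted p under 0.05 (11.8%, beside 5.37% of all genes). In 5 the groups were apart (7.35%, beside 4.03%). The 4 with the smallest p were Cyp7b1, an oxysterol hydroxylase, Acss2, which makes acetyl-CoA from acetate, Mid1ip1, an activator of acetyl-CoA carboxylase, and Scd3, a desaturase. Cyp7b1 was at 13.1, 13.3, 13.6 and 14.6 CPM under the KO label and 26.9, 21.3, 20.5 and 24.0 CPM under the WT label, without overlap, but the difference of -0.75 ± 0.13 did not pass (adjusted p = 0.0685, edgeR). Acss2 was at 20.8, 19.6, 18.2 and 22.1 CPM (KO) and 28.9, 29.4, 27.5 and 31.5 CPM (WT), also apart (-0.53 ± 0.12, adjusted p = 0.184). Mid1ip1 had an estimate of -0.46 ± 0.10 (adjusted p = 0.232). Scd3 was apart in the other direction, at 20.4, 25.2, 20.9 and 24.1 CPM (KO) and 13.4, 17.5, 16.5 and 14.9 CPM (WT) (0.55 ± 0.14, adjusted p = 0.314). In the flowthrough 0 of 68 were called and in 21 the groups were apart (30.9%, beside 33.6% of all genes). There 4 genes (5.88%, beside 4.63%), Elovl4, Acsl3, Cpt2 and Fads3, had an unadjusted p under 0.05, at -0.57, 0.85, -0.52 and -0.53 on the log2 scale (adjusted p = 1 for each, edgeR).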

How the data were processed

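RNA sequencing counts of 12 mouse brain libraries from 8 mice were analysed. The authors deposited, per the file headers, a raw read count, a CPM and an RPKM value for each of 41388 genes in each library. The deposited counts are whole numbers and were the only values tested. Recomputing the deposited CPM from the counts left differences of at most 5.1e-11, and recomputing the deposited RPKM from the exon lengths at most 4.9e-11; both units served only as checks. The submitters' processing notes name GRCm38 as the build and list featureCounts 1.4.6-p5, STAR 2.5.1a, bcl2fastq and Subread without their roles. How strand and multiply mapped reads were treated, and which annotation was used, is not given in the sources used here. Values of paralogs and of overlapping genes are therefore uncertain. Of the identifiers, 40254 matched a symbol in the reference name table.

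Genes were tested with the quasi-likelihood test of edgeR 4.0.16 (glmQLFit, glmQLFTest, two-sided) in R 4.3.3 with TMM factors, the filterByExpr filter and Benjamini-Hochberg adjustment over all tested genes, and an adjusted p under 0.05 was called. KO against WT astrocytes was fitted to astrocytes only (8 libraries and 18527 genes, leaving 6 residual degrees of freedom), and for the other comparisons 4 group means were fitted to all 12 libraries (20997 genes, leaving 8 residual degrees of freedom). CPM in the text are TMM-scaled on the 12-library fit, and ± is the standard error for a log2 fold change and the SD for a level. Intervals are 95%. At 38691406 to 51551942 counts per library, a floor of 3 counts is 0.0582 to 0.0775 CPM, and all members lay above it. The scripts were tested on simulated data. Each label held separate mice, so p-values of KO against WT astrocytes measure the spread between mice. For KO against WT flowthrough the spread was pooled over the 4 groups of 12 libraries, of which 8 are astrocyte libraries. Those p-values therefore do not measure the spread between the flowthrough mice alone. The main fits of the fraction comparisons and of the interaction treat the 12 libraries as independent, although 4 mice gave both fractions. Their p-values therefore do not measure the spread between mice alone.

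The members and gene lists were chosen with earlier results of these data known. By rule, values in every library were given for the passing members, up to 3 with the largest change in each direction per role, and where none passed for the 5 with the smallest p. Values of Sc5d, Fasn, Acly, Acaca and Fdps in the fraction comparison were added because the other comparisons name them, and Aldh1l1 was added as a check. Of the other lipid genes up to 4 per comparison were named, and Lbr was added beside Tm7sf2. Alternatives were DESeq2 1.42.0, limma-voom (limma 3.58.1), other scalings and filters, other sets of libraries, a block for the mouse, and leaving out single libraries. In 4 animals both fractions came from the same mouse, which makes them pairs. Their deviations from the group means correlated by 0.155 (mouse 56), 0.352 (60), 0.251 (64) and -0.00664 (132). The fit with the mouse as a random effect estimated a consensus correlation of 0.418 between libraries of the same mouse. Upstream windows came from RefSeq on GRCm38.p6, and a check of their direction against the transcripts matched 28 of 34 windows in the direction of the gene and 0 in reverse.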

Additional observations from a re-analysis of the deposited data

Results flagged for a closer look

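In 66 groups of 4 astrocyte libraries (33 genes under 2 labels), the library farthest from the rest was compared with the range of its group, and 5 libraries lay apart by more than Dixon's 95% critical value for 4 samples. Chance alone flags about 1 in 20 such groups. Hsd17b7 was at 30.9 CPM in the KO-labelled astrocytes of mouse 62 and 18.1 to 18.2 CPM in the other 3, a gap of 0.992 of the range. Scd1 was at 539.5 CPM in the WT-labelled astrocytes of mouse 57 and 379 to 392 CPM in the others (0.916). Nsdhl in mouse 56 was at 68.4 CPM, beside 55.6 to 57.6 CPM (0.848), and Acly in the same library at 99.3 CPM, beside 88.0 to 89.8 CPM (0.843). Sc5d was lowest in mouse 64, at 166 CPM beside 176 to 178 CPM (0.845), a small difference in a gene of narrow spread.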

How the results depend on the processing

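No estimate of a named gene and no count of called members changed direction where it had passed. Between the fractions 24 to 29 members were called in the 21 alternatives. With library size scaling 23 members were higher and 1 lower (20.2% of all genes higher), and without a filter 25 and 1 (14.9%). DESeq2 and limma-voom each gave 27 and 1 (26.6% and 24.5%). The mouse as a fixed block (replicate block, 8 libraries) gave 27 and 1 (24.7%) and as a random effect 28 and 1 (28.3%). Leaving out single astrocyte libraries called 26 to 28 members, beside 22.9% to 27.2% of all genes higher. Of the 28 members called, 24 passed in all 21 alternatives, and Fdps passed in 13 (log2 0.15 to 0.37), Dhcr7 in 18 (0.41 to 0.69), Srebf1 in 17 (0.47 to 0.72) and Stard4 in 9 (0.16 to 0.33). Single libraries ended these calls: the flowthrough of mouse 60 for all 4 genes, of 64 for Dhcr7, Srebf1 and Stard4, of 132 for Fdps, Srebf1 and Stard4 and of 56 for Fdps and Stard4, and the astrocytes of 132, 56 or 64 for Fdps and of 60, 62, 132, 57 or 78 for Stard4. Under the fixed block Stard4 missed (log2 0.23, adjusted p = 0.134), and the block changed the call of Nsdhl, given with that gene. Leaving out 1 library at a time gave 24 to 28 members between the fractions, 14 to 25 within WT and 1 to 24 within KO, the lowest being without the flowthrough of mouse 64 and of mouse 132. It gave 0 to 0 in the other comparisons. A group then rests on 1 flowthrough library, which is assumed to vary like the other groups. The comparisons of KO with WT in both fractions and the interaction called 0 members in each alternative run. Over all genes, DESeq2 called 183 between KO and WT astrocytes where edgeR called 43, 22 in flowthrough where edgeR called 1 and 8 in the interaction where edgeR called 0. Library size scaling called 28 and single left-out libraries other than that of mouse 73 called 12 to 22 between KO and WT astrocytes. In flowthrough limma-voom and the fit to 4 libraries called 0, as did leaving out mouse 56 or 64, and leaving out mouse 132 called 5. The counts of members under the block within each label are given with those comparisons. Over all genes, within KO the fixed block called 8265 genes and the random effect 8890, where the fit without a block called 4893. With 2 flowthrough libraries per label, the number of mice limits what can be detected there.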
